A study of Mus musculus with 4 samples.

Results

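In cultured mouse periosteal cells, 6 genes of the CSF1 and RANKL pathways were examined. They were the ligands *Csf1*, *Il34* and *Tnfsf11*, the receptors *Csf1r* and *Tnfrsf11a*, and the secreted decoy receptor *Tnfrsf11b*. The genes were taken by symbol from a table of 45802 symbols, in which all 6 were found and all 6 had a value in each of the 4 libraries. The question was whether these genes differ between PDGFRα reporter+ and PDGFRα reporter- cells. Both populations came from the hindlimb periosteum of the same kind of male mice, aged 9 to 10 weeks, which carry a tamoxifen-dependent Cre recombinase under the *Pdgfra* promoter together with the mT/mG color reporter. All animals had been given tamoxifen on 5 days (150 mg/kg/day), 14 days before use. Cells in which the recombinase had acted were GFP+ (reporter+), and the other cells kept tdTomato (reporter-). The reporter therefore records activity of the *Pdgfra* promoter at the time of tamoxifen, not at the time of harvest. Per the labels, cells pooled from 3 to 6 mice were expanded for 1 passage with basic fibroblast growth factor (bFGF) at 10 ng/mL, depleted of CD31, CD45 and Ter119 expressing cells and sorted by color. The study's methods give a larger number of mice per population than the labels do. The 2 populations had 2 libraries of total RNA each.

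Macrophages and osteoclasts, the bone-resorbing cells, are kept alive by CSF1 acting on its receptor CSF1R, and IL-34 is a second ligand of that receptor. RANKL, the product of *Tnfsf11*, drives precursors that carry its receptor RANK (*Tnfrsf11a*) to become osteoclasts. Osteoprotegerin (OPG, *Tnfrsf11b*) binds RANKL and keeps it from RANK. In bone, stromal and osteoblast lineage cells are known as the source of CSF1, RANKL and OPG, whereas CSF1R and RANK are borne by cells of the myeloid lineage.

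The upstream sequences of the abundant stromal ligand *Csf1* and of *Tnfsf11*, the gene with the widest range of values here, are shown as the regions from which the 2 osteoclastogenic signals are transcribed. RefSeq promoter sequences on GRCm38.p6 were found for 3 of the 6 genes. The 250 bases before the start of each gene are given 5′ to 3′ on the minus strand, for *Csf1* from chr3:107760470-107760719 and for *Tnfsf11* from chr14:78308044-78308293. Capitals mark matches, on either strand, to TATAA (the core of a TATA box) or to GGGA followed by any 4 bases and CC (a loose form of the site bound by NF-κB factors).
Csf1: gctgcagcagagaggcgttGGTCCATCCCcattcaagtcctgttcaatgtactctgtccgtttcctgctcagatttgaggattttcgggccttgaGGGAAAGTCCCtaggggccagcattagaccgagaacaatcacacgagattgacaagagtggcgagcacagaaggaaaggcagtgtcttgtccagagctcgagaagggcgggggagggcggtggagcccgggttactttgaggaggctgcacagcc
Tnfsf11: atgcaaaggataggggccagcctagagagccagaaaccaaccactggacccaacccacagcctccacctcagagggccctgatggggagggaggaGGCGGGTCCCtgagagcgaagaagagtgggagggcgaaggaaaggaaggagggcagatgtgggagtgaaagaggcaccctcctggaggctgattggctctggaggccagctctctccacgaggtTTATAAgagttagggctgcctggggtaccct
The TATAA match of *Tnfsf11* lay from 30 to 26 bases before the start, and a match on the other strand, from 31 to 27 bases, was offset from it by 1 base. *Csf1* had no TATAA match in this window. Its matches to the NF-κB motif included a pair that overlap each other on opposite strands, from 155 to 145 bases before the start. Of 32851 promoter windows of this length, 22.8% held TATAA and 17.6% held the NF-κB motif. The motif TGANTCA of AP-1 factors, held by 6.75% of windows, was not found in either sequence. The window of *Tnfrsf11a* held no match to any of these motifs.

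In GENCODE M21 on GRCm38 the 6 protein coding genes lie on 6 chromosomes. *Csf1* is on chromosome 3 (107741048 to 107760469), *Il34* on chromosome 8 (110741829 to 110805924), *Tnfsf11* on chromosome 14 (78277445 to 78308043), *Tnfrsf11a* on chromosome 1 (105780718 to 105847981) and *Tnfrsf11b* on chromosome 15 (54250619 to 54278484). *Csf1r*, on chromosome 18 (61100598 to 61132149), overlaps *Hmgxb3* on the opposite strand, and *Il34* overlaps 2 antisense genes without a value. Whether reads were counted by strand is not stated, so that reads of *Csf1r* and *Hmgxb3* may not have been told apart. The log2 fold change between populations was −0.05 for *Hmgxb3*, compared with 0.83 for *Csf1r*.

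The deposited unit is a log2 expression value after quantile normalization, and the linear unit and depth are not given. Libraries are named here by the number in the column heading, 2 or 3, because the sample labels number them otherwise. What this number stands for is not stated in the labels. Libraries with the same number were closer to each other across genes (Pearson correlations of 0.984 and 0.982) than libraries of the same population (0.952 and 0.957). The differences of the 6 genes are therefore given overall and within each number. Markers of the labelled stromal cells were present, with a value in all libraries for 10 of 10 genes and *Pdgfra* between 7.44 and 7.87. The log2 fold change of *Pdgfra* between populations was 0.05 (SE 0.24), with −0.08 within number 2 and 0.18 within number 3. Of 7 lymphocyte markers, 4 were blank in every library, *Cd3e* of T cells, a known source of RANKL, among them.

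*Tnfsf11* was the gene whose libraries lay farthest apart. Its log2 value was 5.20 and 4.61 in reporter+ libraries 2 and 3, and 4.89 and 2.40 in reporter- libraries 2 and 3. Reporter- library 3 lay far below the other libraries, and the populations overlapped. The means were 4.91 ± 0.41 in reporter+ and 3.65 ± 1.77 in reporter- cells (SD, n = 2 each). The log2 fold change, 1.26 with an SE of 0.87, had an adjusted p of 1 (limma). Within number 2, *Tnfsf11* was 1.23 times as high in reporter+ as in reporter- cells (log2 difference 0.30), and within number 3 it was 4.65 times as high (2.22). Without reporter- library 3 the log2 fold change was 0.01, and without reporter- library 2 it was 2.51, so that its size rested on reporter- library 3. In bulk RNA, fewer cells that express a gene and less of its RNA per cell cannot be told apart, for this gene and those that follow.

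**Figure D1:**
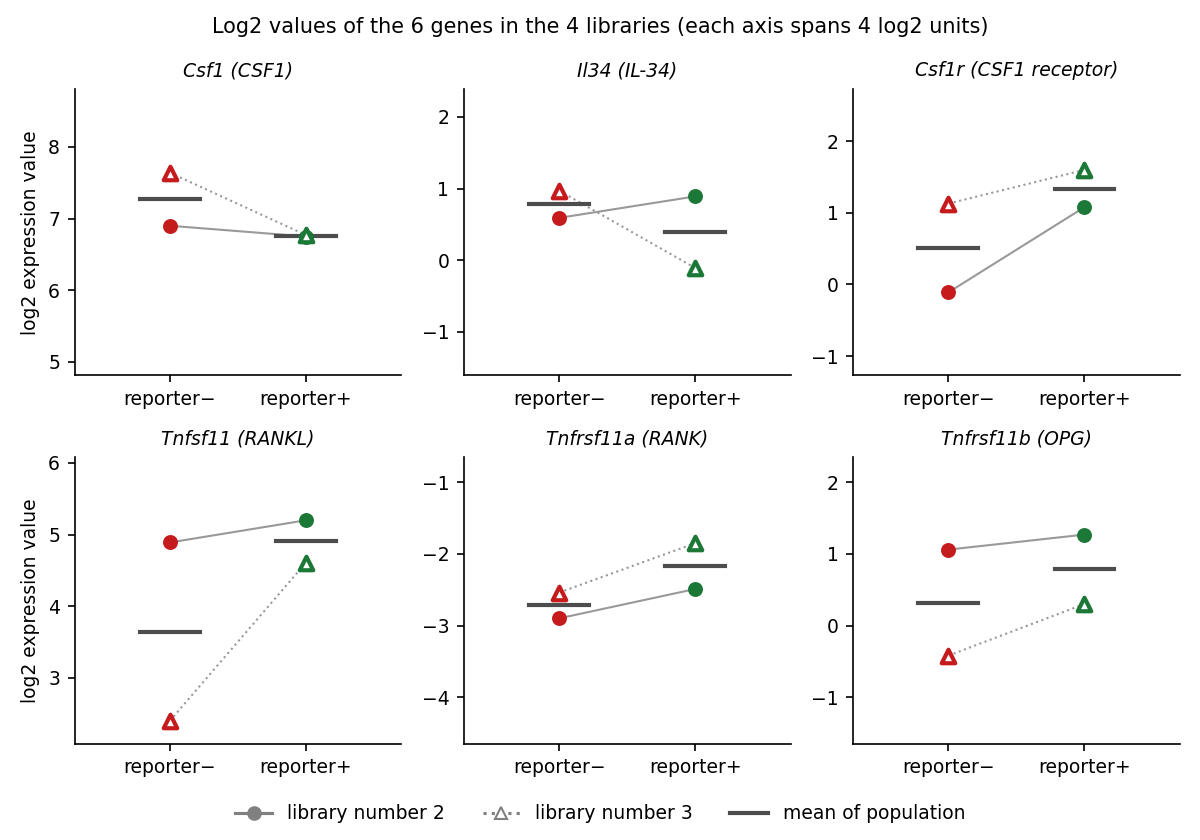
Log2 expression values (vertical axis, 4 log2 units in each panel) of the 6 genes in reporter- (red) and reporter+ (green) libraries. Circles are libraries numbered 2, triangles libraries numbered 3, horizontal bars the mean of each population, and thin lines join libraries with the same number. *Tnfsf11* in reporter- library 3, at 2.40, lies apart from the other libraries of that gene, and only *Csf1* and *Tnfrsf11a* have populations that do not overlap.

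*Tnfrsf11b*, the decoy receptor, had log2 values of 1.27 and 0.30 in reporter+ libraries 2 and 3, and of 1.06 and −0.42 in the corresponding reporter- libraries. Both libraries numbered 3 were lower than both numbered 2, whichever population they came from. The log2 fold change between populations was 0.46 (SE 0.64, adjusted p of 1 with limma), made up of 0.21 within number 2 and 0.72 within number 3. It was −0.28 without reporter- library 3 and −0.02 without reporter+ library 2, and 1.20 without reporter- library 2 and 0.94 without reporter+ library 3. In each of these the numbers are no longer balanced.

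The balance of RANKL and OPG was read as the log2 value of *Tnfsf11* minus that of *Tnfrsf11b* in each library, in which a gene's length cancels when libraries are compared. It was 3.93 and 4.32 in reporter+ libraries 2 and 3, and 3.83 and 2.82 in reporter- libraries 2 and 3. Both reporter+ libraries lay above both reporter- libraries, by little within number 2 (0.10) and by 1.50 within number 3, a ratio of 2.83. The means were 4.12 ± 0.27 and 3.33 ± 0.72 (SD, n = 2 each), a difference of 0.80, with p = 0.333 in an exact two-sided permutation test, the smallest p that 2 libraries against 2 can give. It was 0.29 without reporter- library 3. Because *Tnfrsf11b* was low in the same library as *Tnfsf11*, the difference within number 3 was smaller for the balance than for *Tnfsf11* alone (2.22).

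**Figure D2:**
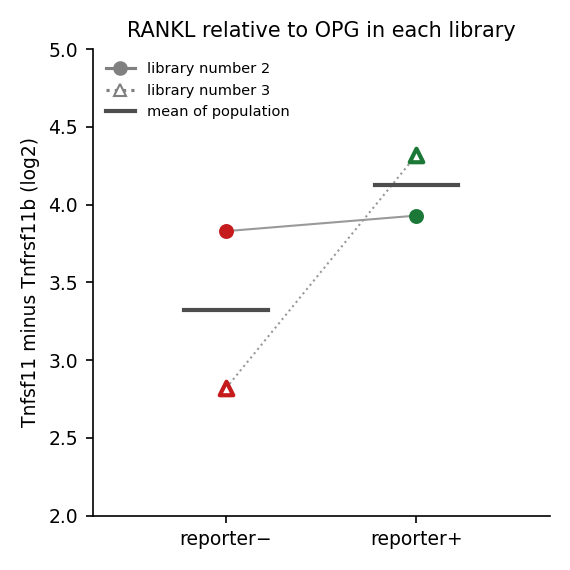
Log2 value of *Tnfsf11* (RANKL) minus log2 value of *Tnfrsf11b* (OPG) in each library (vertical axis, log2 units), by population. Circles and triangles are libraries numbered 2 and 3, horizontal bars the means, and the lines join equal numbers. The values run from 2.82 in reporter- library 3 to 4.32 in reporter+ library 3, and the libraries numbered 2 differ by 0.10.

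*Tnfrsf11a*, which codes for RANK, was low in all libraries, as its log2 values were −2.49 and −1.85 in reporter+ libraries 2 and 3 and −2.90 and −2.54 in reporter- libraries 2 and 3. The reporter+ libraries lay above the reporter- libraries, with reporter+ library 2 and reporter- library 3 close to each other. The log2 fold change was 0.55 (SE 0.51, adjusted p of 1 with limma), with 0.41 within number 2 and 0.69 within number 3. With each library left out in turn it ranged from 0.23 to 0.87. With a pseudocount of 1 it was 0.09, with 0.05 within number 2 and 0.12 within number 3.

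*Csf1* had log2 values of 6.75 and 6.77 in the reporter+ libraries, which were nearly equal, and of 6.90 and 7.64 in reporter- libraries 2 and 3. The populations did not overlap, with reporter- cells higher. The log2 fold change was −0.50 (SE 0.30, adjusted p of 1 with limma), and reporter+ cells had 0.905 times the level of reporter- cells within number 2 and 0.55 times within number 3. The value was −0.13 without reporter- library 3 and −0.87 without reporter- library 2. *Il34*, the other CSF1R ligand, had log2 values of 0.89 and −0.11 in reporter+ libraries 2 and 3 and of 0.59 and 0.97 in reporter- libraries 2 and 3. Its direction was not the same in both numbers, at 0.29 within number 2 and −1.08 within number 3, and its log2 fold change was −0.39 (SE 0.43, adjusted p of 1 with limma). It was 0.11 without reporter+ library 3 and −0.89 without reporter+ library 2.

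*Csf1r* had log2 values of 1.08 and 1.60 in reporter+ libraries 2 and 3 and of −0.11 and 1.13 in reporter- libraries 2 and 3. Reporter- library 2 was the lowest, and reporter- library 3 lay just above reporter+ library 2, so that the populations overlapped. The level in reporter+ cells was 2.28 times that in reporter- cells within number 2 and 1.39 times within number 3 (log2 differences of 1.19 and 0.47). The log2 fold change was 0.83 (SE 0.50, adjusted p of 1 with limma). It was 0.21 without reporter- library 2 and 1.45 without reporter- library 3.

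By rank among the deposited values of a library, *Csf1* lay at percentiles 98.5 to 99.2, *Tnfsf11* at 64.8 to 95.2, *Csf1r* at 33.2 to 51.9, *Tnfrsf11b* at 31.0 to 47.0, *Il34* at 33.2 to 43.3 and *Tnfrsf11a* at 18.4 to 23.1. Whether the values were scaled by gene length is not stated, so that these ranks do not order the genes by the number of transcripts. The 1st percentile of the listed values was −7.01 to −6.74 for genes with 1000 to 2000 bases of exon and −8.54 to −8.32 for those with 8000 to 16000 bases.

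Between populations, limma called 0 of the 6 genes at an adjusted p under 0.05 and left 0 of them with an unadjusted p under 0.05. This fit, without the number as a term, had little power. On simulated data it called 0 of 200 genes made to differ by 2 log2 units. The fit with the number as a block called 180 of them, and also 38 unchanged genes. Smaller log2 fold changes, such as those of the 6 genes, were not simulated. A count of 0 here and in the lists below therefore does not show that the populations are alike. Over all 14415 genes tested the adjusted p was under 0.05 for 0%, with 131 genes at an unadjusted p under 0.05. The populations did not overlap for 2 of the 6 genes, *Tnfrsf11a* higher and *Csf1* lower in reporter+ cells. Of all genes tested, 7.59% lay higher and 8.1% lower in both reporter+ libraries than in both reporter- libraries. Within both numbers alike, 4 genes were higher in reporter+ cells (*Csf1r*, *Tnfsf11*, *Tnfrsf11a* and *Tnfrsf11b*) and 1 was lower (*Csf1*), compared with 22.1% and 24.8% of all genes. For 5 of the 6 genes, *Csf1r* being the exception, the difference within number 3 was larger in size than that within number 2.

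**Figure D3:**
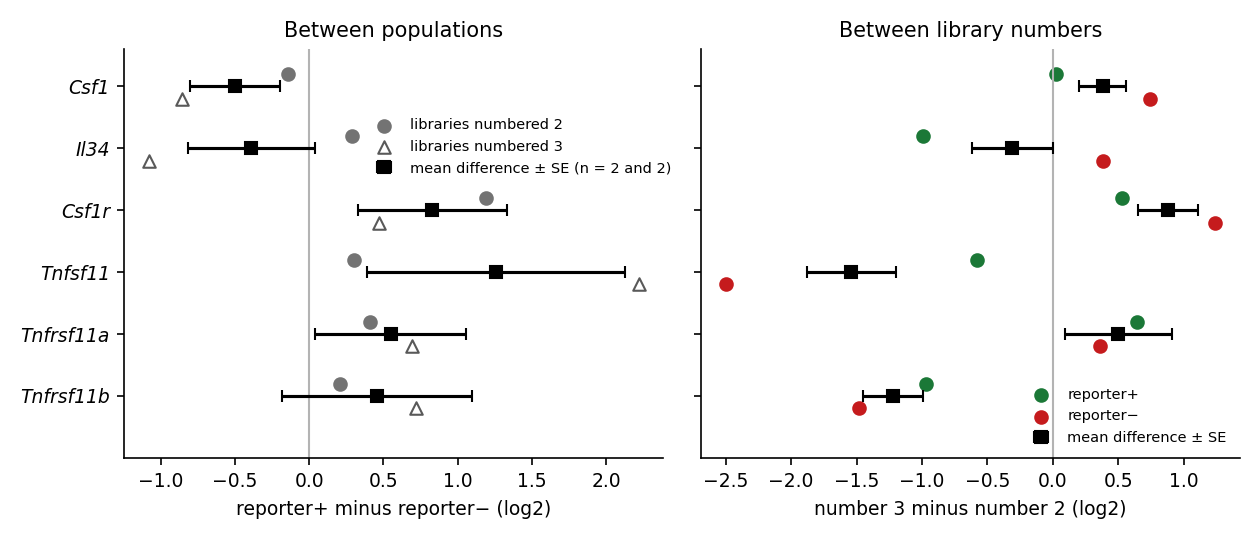
Left, reporter+ minus reporter- (log2), as the mean difference with its SE (squares, 2 libraries in each population) and within the libraries numbered 2 (circles) and 3 (triangles). Right, number 3 minus number 2 (log2), as the mean difference with its SE (squares) and within reporter+ (green) and reporter- (red) cells. *Tnfsf11* and *Tnfrsf11b* are lower in number 3 in both populations, and *Csf1r* is higher in both.

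The libraries numbered 3 were also compared with those numbered 2, with the population as a term of the model. *Tnfsf11* was lower in number 3 (log2 difference −1.54, SE 0.34, adjusted p = 0.0132 with limma), by 0.58 in reporter+ and 2.50 in reporter- cells. *Tnfrsf11b* was lower by 1.22 (SE 0.23, adjusted p = 0.00581), by 0.97 in reporter+ and 1.48 in reporter- cells. *Csf1r* was higher (0.88, SE 0.23, adjusted p = 0.0241), by 0.53 and 1.24. Of the 16 macrophage markers described below, 8 were called higher in number 3 and 0 lower, with a median difference of 0.66, and their part in the value of *Csf1r* was not tested. The adjusted p was 0.163 for *Csf1* (0.38, SE 0.18), 0.435 for *Tnfrsf11a* (0.50, SE 0.41) and 0.527 for *Il34* (−0.31, SE 0.31). These 3 calls among 6 stand beside 11.5% of all genes called higher and 9.79% called lower in number 3. With a pseudocount of 1 the adjusted p was 0.0957 for *Tnfsf11*, 0.0677 for *Csf1r* and 0.0276 for *Tnfrsf11b*, so that only the last stayed called. Without the mean-variance trend in limma, a setting chosen after seeing the data, 0 of all genes were called (3909 with an unadjusted p under 0.05), and the adjusted p was 0.217 for *Tnfsf11*, 0.089 for *Tnfrsf11b* and 0.157 for *Csf1r*.

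Within each number, macrophage markers were mostly higher in the population where *Csf1r* was higher. Of 18 genes, 16 had a value in all libraries, and both reporter+ libraries lay above both reporter- libraries for 9 of them and below for 0 (median log2 fold change 0.99, compared with 0.00 over all genes tested). The summed linear level of the list was 253 and 299 in reporter+ libraries 2 and 3, and 101 and 192 in reporter- libraries 2 and 3. Most of each sum was 1 gene, *Lyz2*. Its log2 values were 7.65 and 7.88 in reporter+ libraries 2 and 3, and 6.27 and 7.25 in reporter- libraries 2 and 3. The reporter+ library was the higher one within each number, as for *Csf1r*. The median difference was 1.25 within number 2 and 0.74 within number 3, beside 1.19 and 0.47 for *Csf1r*. *C1qb*, a chain of complement C1q made by macrophages, had a log2 fold change of 1.48, *Adgre1*, a surface marker of macrophages, and *C1qa* of 1.13 each, and *Mrc1*, the mannose receptor, of 1.02. *Tyrobp*, an adaptor of myeloid receptors, had log2 values of 3.05 and 3.45 in reporter+ libraries 2 and 3 and of 1.88 and 2.61 in reporter- libraries 2 and 3. *Ptprc*, the gene of CD45 used in the sort, had −1.28 and −0.39 in the reporter+ libraries and −2.30 and −1.22 in the reporter- libraries. *Cd163* was blank in 3 libraries. Between populations limma called 0 of these 16 genes, and for 5 of them the unadjusted p was under 0.05. The part of macrophage RNA in the values of *Csf1r* was not tested.

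Osteoclast markers, the genes of cells that RANKL induces, had a larger median difference within number 3 than within number 2. Of 10 genes, 9 had a value in all libraries, 5 of these were separate and higher in reporter+ cells, 0 were separate and lower, and the median log2 fold change was 0.78. The median difference was 0.13 within number 2 and 1.76 within number 3, beside 0.30 and 2.22 for *Tnfsf11*. *Acp5*, the tartrate-resistant acid phosphatase, had log2 values of 1.31 and 1.95 in reporter+ libraries 2 and 3 and of 0.87 and −0.52 in reporter- libraries 2 and 3. Its difference was 0.44 within number 2 and 2.48 within number 3. *Dcstamp*, needed for the fusion of osteoclast precursors, differed by 0.10 and 2.38, and its relative *Ocstamp* by −0.85 and 2.40. *Mmp9*, a gelatinase, differed by 1.03 and 2.48. *Ctsk*, cathepsin K, was high in all libraries and differed by 0.33 and 0.45. Not all of the list did so, as *Itgb3*, the β3 integrin chain, was lower in reporter+ cells within both numbers (−0.54 and −0.61), and *Trem2*, a receptor of myeloid cells, differed more within number 2 (0.82) than within number 3 (0.40). The summed linear level of the list was 52.6 and 48.6 in reporter+ libraries 2 and 3 and 36.4 and 25.4 in reporter- libraries 2 and 3. The largest part of each sum was *Ctsk*, with log2 values of 4.38 and 4.42 in reporter+ and 4.05 and 3.97 in reporter- libraries 2 and 3. The study reports *Ctsk* as high in both periosteal populations, so that the sum is not a level of osteoclasts alone. Here limma called 0 of the 9 genes, and for 2 of them the unadjusted p was under 0.05. Whether these markers move with RANKL was not tested.

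**Figure D4:**
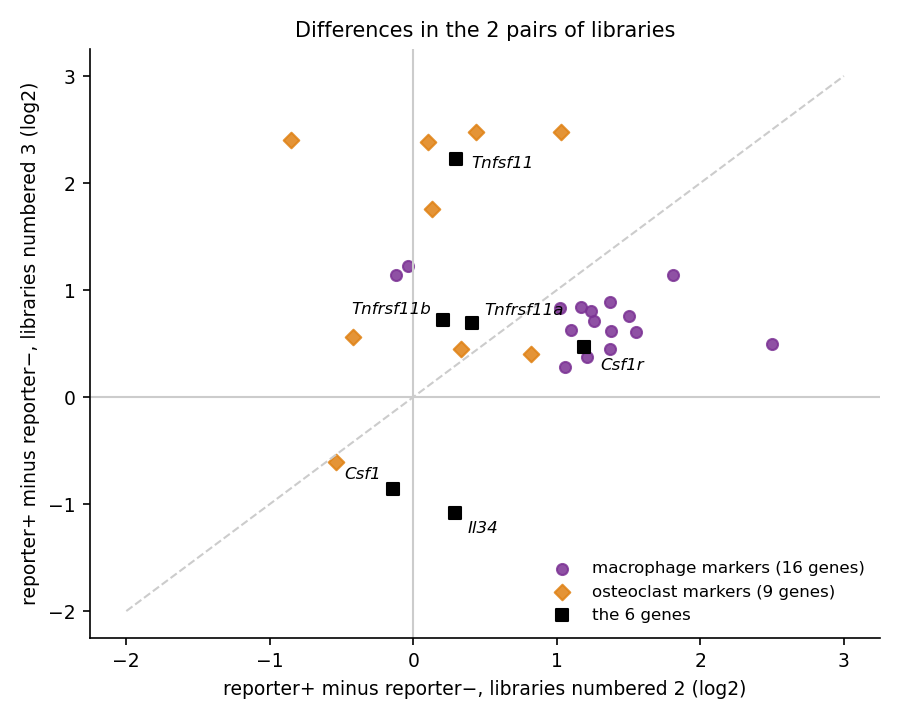
Reporter+ minus reporter- (log2) within the libraries numbered 2 (horizontal axis) and numbered 3 (vertical axis), for the 6 genes (squares), macrophage markers (purple circles) and osteoclast markers (orange diamonds) with a value in all libraries. The dashed line marks equal differences. *Csf1r*, at 1.19 and 0.47, lies among the macrophage markers, and *Tnfsf11*, at 0.30 and 2.22, lies near several osteoclast markers.

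Osteoblast and osteocyte markers, of cells that can also make RANKL, had values in all libraries for 5 of 8 genes, with a median log2 fold change of 0.09. Of these, 2 were separate and higher in reporter+ cells, *Alpl*, the alkaline phosphatase of osteoblasts (log2 fold change 0.80, SE 0.44), and *Ibsp*, bone sialoprotein (1.35, SE 0.77, at a mean below 0). *Ibsp* differed by 2.51 within number 2 and by 0.18 within number 3. *Sp7* and *Dmp1* had opposite signs within numbers 2 and 3 (0.57 and −0.39 for *Sp7*, 0.57 and −1.32 for *Dmp1*), *Phex* differed by −0.14 and −0.16, and *Sost* of osteocytes was blank in 3 libraries. The summed linear level was 3.11 and 5.31 in reporter+ libraries 2 and 3 and 2.02 and 3.76 in reporter- libraries 2 and 3. It was higher in reporter+ cells within each number, as *Tnfsf11* was, and lower in number 2, where *Tnfsf11* was higher. The part of such cells in the values of *Tnfsf11* was not tested. Endothelial markers were listed in all libraries for 6 of 6 genes, at means below 0. Of these, 4 were separate and lower in reporter+ cells, as *Csf1* was. The median log2 fold change of the list was −2.5. Between populations, limma called 0 of these markers, and for 4 of them the unadjusted p was under 0.05. Their summed linear level was 0.311 and 1.21 in reporter+ libraries 2 and 3 and 1.10 and 3.73 in reporter- libraries 2 and 3. The largest part of the sum in reporter- library 3 was *Tek*, which was not separate (log2 values of 0.05 in reporter+ library 3 and 1.10 in reporter- library 3). *Pecam1*, the gene of CD31 used in the sort, had log2 values of −4.68 and −4.79 in the reporter+ libraries and of −1.99 and −1.11 in the reporter- libraries. Their part in the values of *Csf1* was not tested.

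The genes that act around the 6 were described by fixed lists, in which limma called 0 genes between populations. Of 14 regulators of RANKL and OPG in stromal cells, 3 were separate and higher in reporter+ cells and 0 separate and lower (median log2 fold change 0.04). These were *Il6st*, the gp130 chain shared by receptors of the interleukin-6 family (0.38, SE 0.22), *Pth1r*, the receptor of parathyroid hormone (0.28, SE 0.20), and *Osmr*, the oncostatin M receptor (0.18, SE 0.15). The unadjusted p was under 0.05 for 0 genes of these lists. Of 15 genes of CSF1R signal transduction, 2 were separate and higher and 1 separate and lower (median 0.02). The lower one was *Dok1*, an adaptor downstream of tyrosine kinases (−0.36, SE 0.20), and the higher ones had means below 0. Of 19 genes of RANK signal transduction, 1 was separate and higher, *Tab2*, an adaptor of the TAK1 kinase (0.13, SE 0.15), and the median was −0.04. In the comparison of numbers, 5 of these 19 were called lower in number 3 and 0 higher, compared with 9.79% and 11.5% of all genes, and these were named after their values were seen. As for all genes, 0 of them were called without the trend. They were *Fos* (−1.72) and *Nfatc1* (−1.47), transcription factors that act downstream of RANK in osteoclasts, *Ikbkg* (−0.86), *Rela* (−0.51) and *Nfkb1* (−0.46). Of 7 other receptors, partners and proteases of the ligands, 1 was separate and higher, *Ptprz1*, a second receptor of IL-34, at a mean below 0. *Lgr4*, a second receptor of RANKL, had mean log2 values of 2.77 in reporter+ and 2.51 in reporter- cells.

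For each of the 6 genes, the 3 genes with the most similar pattern were sought among 10219 candidates whose log2 values averaged at least 0. Similarity was the root mean square distance between the 4 values of each gene after its own mean was subtracted. With 4 libraries many genes come close, so that the lists are a description. *Csf1* was closest to *Txnip* (distance 0.0344), *Arhgef4* (0.0484) and *Notch1* (0.0765), which were all highest in reporter- library 3. *Csf1r* was closest to *Itgb2* (0.0745), the β2 integrin chain of leukocytes, then to *Penk* (0.0762) and *Angptl4* (0.0979). *Tnfrsf11b* was closest to *A4galt* (0.0471), *Cda* (0.0533) and *Col12a1* (0.0547), and *Tnfrsf11a* to *Pde1a* (0.0308), *Tmem86a* (0.0795) and *Itih2* (0.0815). The nearest genes of *Il34* were *Tfb1m* (0.0952), *Slc24a3* (0.0983) and *Pltp* (0.101). *Tnfsf11* had no gene as near, with *Frmd5* at 0.338, *Serpina3i* at 0.348 and *Slc16a3* at 0.369.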

How the data were processed

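Total RNA of 4 libraries, 2 of PDGFRα reporter+ and 2 of PDGFRα reporter- periosteal cells, was sequenced by the authors (stranded kit, paired ends). The submitters' processing notes name bcl2fastq 2.17.1.14, Partek 7.0 and the genome build GRCm38.p6, and the aligner, counting, annotation and filters are not given in the sources used here. The authors deposited 1 log2 value per gene symbol and library, quantile normalized (median 1.48 in each library) and blank where no signal was found. The depth behind these values is unknown, and counting error was not estimated. Columns were mapped to their population only, since the heading numbers (2, 3) are not the replicate numbers of the labels.

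Genes with a value in all 4 libraries (14415 of 45802) entered limma 3.58.1 under R 4.3.3 (eBayes with trend, two-sided, no block), with Benjamini-Hochberg adjustment over all of them and a threshold of 0.05. Heading numbers were compared in a model with population as a term. Nothing says that libraries came from separate cultures, so that p-values measure only the spread between these libraries. The model was tested on simulated data with a spread and a difference between numbers like those of these libraries. The sizes were estimated without bias, but the fit without the block called none of the changed genes, whereas the fit with the block called most of them and some unchanged ones. A "separate" gene has both libraries of a population above both of the other. The summed linear level of a list is the sum of 2 to the power of its log2 values. Figures were drawn with matplotlib 3.10.9, and summaries made in Python 3.11.15 with scipy 1.17.1, pandas 2.3.3 and numpy 2.4.6. The members, lists and tests were chosen with earlier results of these data known. Named genes were the members, list genes that are separate with a mean of at least 0 (at most 4 per list), cell type defining markers and the 3 nearest genes of each member. Genes named after their values were seen are *Ptprz1*, *Lgr4*, *Cd163*, *Lyz2*, *Ibsp*, *Sp7*, *Phex*, *Dmp1*, *Tek*, *Itgb3*, *Trem2*, *Hmgxb3*, those called between numbers and those in the closing observations. Alternatives were a replicate block, pseudocounts of 1 and 0.1, a filter, filled blanks, no trend, centring and leaving out each library. Some genes of the CSF1R list are not reported here by name.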

Additional observations from a re-analysis of the deposited data

Results flagged for a closer look

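*Il34* is listed here because its difference between populations had opposite signs within the 2 library numbers, as it did for 53.1% of all 14415 genes tested, so that this is the usual case. Reporter+ minus reporter- was 0.29 on the log2 scale within number 2 and −1.08 within number 3, from 1 library of each population in each case. This difference between the numbers was not tested, since no residual variation is left once both are fitted. With a pseudocount of 1 the values were 0.18 and −0.62.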

How the results depend on the processing

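Under the 8 alternatives that kept all libraries, the 47 log2 fold changes of the 6 genes kept their direction, and 0 had an adjusted p under 0.05. *Tnfrsf11a* was lost to the filter on a mean of at least 0. With each library left out in turn, 3 of 24 values changed sign. *Il34* ranged from −0.89 to 0.11 and *Tnfrsf11b* from −0.28 to 1.20, with −0.02 without reporter+ library 2. Leaving out 1 library also unbalances the numbers. With the number as a replicate block, 29 genes of 14415 were called against 0 without it, none of them among the 6. The smallest adjusted p of the 6 was 0.311 (*Tnfsf11* 1.26 and *Csf1r* 0.83, limma). In this fit 3 of the 6 had an unadjusted p under 0.05, compared with 913 of all 14415 genes. The macrophage markers *Tyrobp* and *C1qb* were among the 29 (adjusted p = 0.0437 each), and 14 of the 16 macrophage markers and 6 of the 9 osteoclast markers had an unadjusted p under 0.05 with the block. The count was 0 with the block and no trend, a setting added after seeing the data. Libraries with the same number deviated together from their population means (correlation 0.681 across genes), as a hint from the data, since the labels do not pair them.

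For number 3 against number 2, genes called fell from 3065 to 1825 with a pseudocount of 1, where *Csf1r* (0.55, adjusted p = 0.0677) and *Tnfsf11* (−1.43, adjusted p = 0.0957) were no longer called, and to 0 without a trend, where the differences stayed at 0.88, −1.54 and −1.22 for *Csf1r*, *Tnfsf11* and *Tnfrsf11b*. The cause was not tested. No library could be left out there, as no residual variation would be left. The balance of RANKL and OPG stayed positive, from 0.29 to 1.31. A pseudocount of 1 most reduced the differences of low genes such as *Tnfrsf11a* (0.09). Depth is unknown and limits the lowest genes most.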

Other observations

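Among the other colony-stimulating factors, *Csf2* (GM-CSF) and the receptor *Flt3* were blank in all libraries, and *Csf3* (G-CSF) had a value only in the reporter+ libraries, −6.92 and −3.32. Of 9 genes of this list, 5 had a value in all libraries, and 0 were called between populations (limma, 0 with an unadjusted p under 0.05). Of these 5, 1 was separate and higher in reporter+ cells, *Csf2rb2* (log2 fold change 0.82, SE 0.60), at a mean below 0. *Kitl*, the stem cell factor, had log2 values of 4.53 and 3.95 in reporter+ libraries 2 and 3 and of 4.70 and 3.97 in reporter- libraries 2 and 3. It was lower in number 3 than in number 2 (−0.66, adjusted p = 0.0049 with limma), as *Tnfsf11* was. *Tnfsf10*, which codes for TRAIL, another ligand of OPG, went the other way between numbers, with −2.25 and −0.46 in reporter+ and −3.10 and −1.03 in reporter- libraries 2 and 3 (1.93 higher in number 3, adjusted p = 0.00549). *Spi1*, the myeloid transcription factor PU.1 that acts on *Csf1r*, had −0.94 and 0.48 in reporter+ and −2.21 and −0.61 in reporter- libraries 2 and 3.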
